A study of Mus musculus with 30 samples.

Results

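The genes described here are 82 genes of a mouse embryonic stem cell clone. In 4 groups of arrays, their signal first stood clearly above its starting level on day 5 of doxycycline withdrawal. In other groups some of them already stood above it on day 3, as described below. The genes were selected on the means of those 4 groups, day 0 with doxycycline and days 1, 3 and 5 without it. A gene was kept where the day 1 and day 3 means were each less than 0.3 above day 0, the day 5 mean was at least 0.7 above day 0, and the mean over all 30 arrays was at least 6, all on the log2 scale. Of 19935 genes with a transcript cluster (the probes summarised together as 1 transcript) carrying a single symbol, 16593 met the signal minimum, 82 met the whole rule, and 1002 others were at least 0.7 higher on day 5 without meeting it. Their values in the 4 selecting groups therefore describe the choice and were not tested. The tests below use the 18 arrays of pulsed cells and time-matched controls, which the day rule did not use. They entered the choice of genes in another way, through the mean over all 30 arrays, which set the signal minimum and, for a gene with several clusters, picked the cluster of highest mean.

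The study asked how embryonic stem cells depend on Nanog, a homeobox factor of the naive pluripotent state. All 30 arrays came from 1 Nanog rescue clone, made in rtTA-expressing AINV15 cells and kept on primary embryonic fibroblast feeders, so that all groups share the clone, its transgene and the feeder layer. The rtTA protein is the transactivator through which doxycycline turns the transgene on. The 10 groups of 3 arrays were days 1, 3 and 5 of withdrawal followed by 12 h with doxycycline (pulsed cells), the same days followed by 12 h without it (controls), days 1, 3 and 5 of withdrawal with no added hours, and day 0 with doxycycline at 1 ug/ml. Neither cells kept on doxycycline for the same days nor cells with doxycycline-independent Nanog were among the arrays, so loss of doxycycline and days in culture cannot be told apart, nor can doxycycline and Nanog. The labels do not say whether replicates, or the groups of a day, were separate cultures, and p-values therefore measure only the spread between these arrays.

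Nanog, the gene under doxycycline control, read 10.70 to 11.11 on the 9 pulsed arrays and 10.04 to 10.36 on the 9 controls, so that every pulsed array lay above every control. The mean of 6 embryonic stem cell markers per array was 10.62 to 10.88 in day 5 pulsed cells and 10.69 to 10.97 in day 5 controls, against 11.43 to 11.47 in day 1 pulsed cells and 11.33 to 11.49 in day 1 controls. Arrays have no read depth; their interquartile range ran from 2.43 to 2.95, and the widest were 2 of the 3 day 5 controls, 1 day 3 control and 1 day 1 control. Results that turn on these 4 arrays were refitted without them. That leaves 1 day 5 control, so no count or p-value for day 5 controls is taken from that fit.

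As background, mouse embryonic stem cells that lose naive factors leave self-renewal over several days, and lowered Nanog or Pou5f1 function is known to open routes to extraembryonic fates. Trophoblast and extraembryonic endoderm cells are known for X-linked placental homeobox genes, for imprinted growth regulators such as the cell cycle inhibitor Cdkn1c, and for basement membrane proteins such as collagen IV and Sparc. Cells that stop dividing and spread can also build actin cytoskeleton, adhesion receptors and a larger secretory and lysosomal system. Cell division and spreading were not measured on these arrays.

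By the selecting values, the median gene was 0.82 above day 0 on day 5, with a range of 0.70 to 1.37, which is 1.63 to 2.59 times the day 0 signal. The largest selecting differences belonged to Mbnl3 (1.37), Igfbp6 (1.23), Scel (1.18), Lgmn (1.16), Sparc (1.13), Gsn (1.13), Usp18 (1.09), Taf7l (1.08), Flnc (1.05), Rhox9 (1.04), Cdkn1c (1.04) and Gjb2 (1.03). On day 1 of withdrawal the members lay between 0.63 below and 0.24 above day 0, and on day 3 between 0.42 below and 0.30 above. Myl4 was the lowest at both times, at −0.63 and −0.42, so its day 5 level followed a dip. At the day 5 limit, Qsox1 (0.70), Dysf (0.70) and Tmbim1 (0.71) were just inside, and Tmem30a (0.70), Pla2g15 (0.70) and Efnb1 (0.70) just outside, with unrounded values of 0.7029, 0.7041 and 0.7111 against 0.6988, 0.6985 and 0.6977. At the day 3 limit, Qsox1 (0.298), Efna5 (0.296) and Bmp7 (0.294) were inside, and B4galt4, Irf2 and Tns4 outside at 0.302, 0.303 and 0.303. Cdkn1c (0.241), H3c15 (0.233) and Slc7a8 (0.231) came nearest the day 1 limit. Papss2 (6.03), Scel (6.15) and Serpinb6b (6.22) were nearest the signal minimum from above, and Hapln1 (5.95), Ctsj (5.65) and 1700013H16Rik (4.94) from below.

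**Figure D1:**
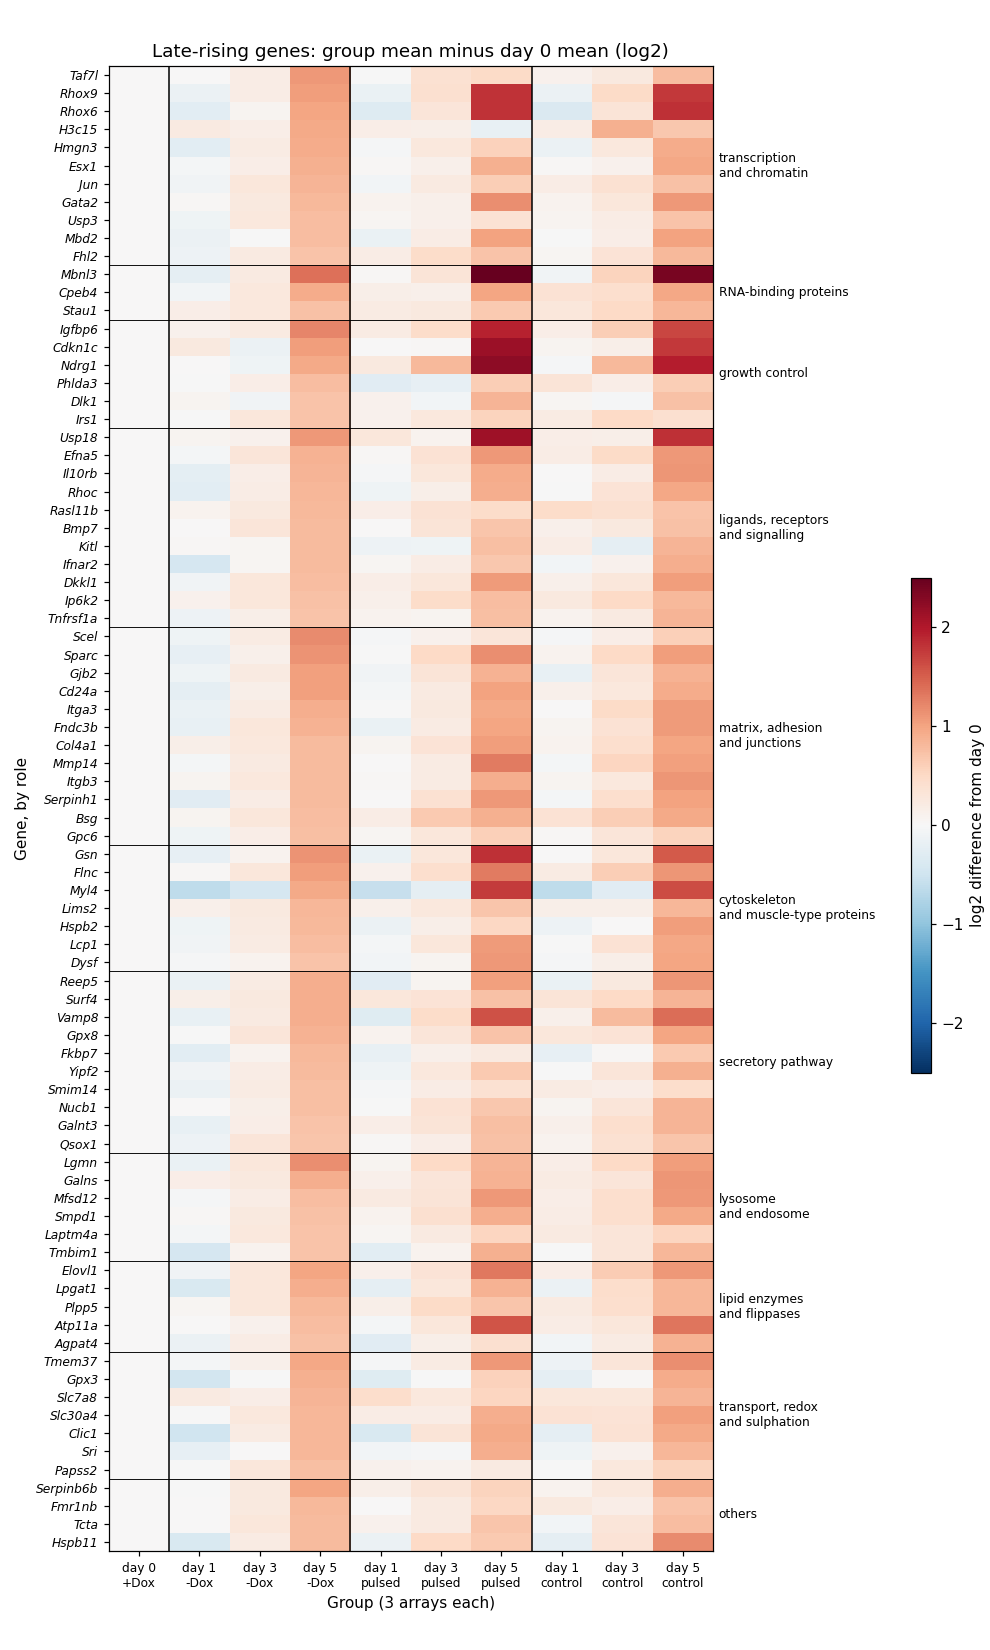
Heat map of the 82 late-rising genes (rows, by role) in the 10 groups (columns, 3 arrays each), coloured by group mean minus day 0 mean on the log2 scale. The first 4 columns are the groups that selected the genes. Day 5 pulsed cells and day 5 controls are the high columns among the other 6, with medians of 0.87 and 0.94 above day 0.

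The late rise was present in both sets of arrays that the day rule did not use. In pulsed cells, 79 of the 82 genes were higher on day 5 than on day 1 (limma, adjusted p under 0.05), against 14.5% of all 23385 clusters tested. In controls 78 were higher, against 16.4% of clusters. A rise by day 5 was not particular to these genes. Of the 1002 others at least 0.7 higher on day 5 of withdrawal, 81.9% were called higher in pulsed cells and 84.6% in controls. The shares of members were 96.3% and 95.1%, and the difference was not tested. Of the members 0 were called lower in either set, with 13.7% of clusters called lower in pulsed cells and 15.8% in controls. The signal minimum drew on the day 5 arrays, and Papss2, Scel and Kitl would have missed it on the mean of the other 7 groups (5.91, 5.95 and 5.97). Without these 3 genes the counts were 77 of 79 in pulsed cells and 75 of 79 in controls. The median difference over the members was 0.85 in pulsed cells and 0.90 in controls, with medians over all clusters of −0.01 and −0.06. H3c15, Slc7a8 and Papss2 were not called in pulsed cells, and H3c15, Rasl11b, Phlda3 and Irs1 were not called in controls. Since the arrays were of whole cultures, more RNA per cell and more cells of a type cannot be told apart in any of these values.

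Most of the gain fell in the last interval. Day 5 exceeded day 3 for 69 members in pulsed cells, with 8.99% of clusters called higher, and for 79 in controls, with 8.98% called. Called lower were 8.53% of clusters in pulsed cells and 7.42% in controls, and 0 members. Of the 1002 other genes, 46.3% were called higher over this interval in pulsed cells and 51% in controls, against 84.1% and 96.3% of members. The median differences over the members were 0.63 and 0.60. Without the 4 widest arrays 1 day 5 control is left, so the day 3 to day 5 count in controls is not given. In a fit of the groups compared alone it was 61, with 2.57% of clusters called. Between day 1 and day 3 of the controls, 33 members were already higher on day 3, with 5.6% of clusters called, and 1 was lower, with 4.42% called. That gene was Kitl, the ligand of the Kit receptor, which read 5.93, 5.79 and 5.58 on the day 3 controls, against 6.17, 6.20 and 6.21 on the day 1 controls (−0.43 ± 0.11, adjusted p = 0.0149). Over all 82 members, called or not, the median step in controls was 0.25 from day 1 to day 3. From day 3 to day 5 it was 0.60. Of the 1002 other genes 49.4% were called higher over the early step, with a median of 0.29, against 40.2% of members. Without replicate 2 of the day 3 controls 20 members were called, with 3.19% of clusters. In the fit of all arrays Ndrg1 had the largest early step, at 0.85 ± 0.069, adjusted p = 5.3e-09.

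All 3 day 5 arrays lay above every day 1 and day 3 array for 73 members in pulsed cells, a separation seen in 12.8% of the 19935 genes. In controls this held for 76 members and 9.07% of genes. Taking pulsed and control arrays together, all 6 day 5 arrays lay above all 12 earlier ones for 67 members, against 4.73% of genes. Across the 82 genes, the day 5 minus day 1 difference in pulsed cells and that in controls, which share no array, had Pearson r = 0.871 and Spearman rho = 0.799. That correlation is across genes, which are not independent replicates. For the control difference and the selecting difference, which also share no array, r was 0.541 and rho 0.442.

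Among the largest gains were those of genes known from placenta and from growth control. Mbnl3, a muscleblind-family RNA-binding protein that regulates splicing, read 9.48, 9.44 and 9.52 on day 5 pulsed arrays and 9.19, 9.08 and 9.71 on day 5 controls, against 7.06, 6.91 and 7.01 on day 1 pulsed arrays and 6.73, 6.71 and 7.21 on day 1 controls. The days did not overlap in either set, with a difference of 2.49 ± 0.14, adjusted p = 1.07e-13 in pulsed cells and 2.45 ± 0.14, adjusted p = 1.8e-13 in controls. Rhox6, Rhox9 and Esx1 are homeobox genes of the X chromosome known from placenta and germ line, and all 3 were higher on day 5 in both sets. Rhox6 read 11.73, 11.77 and 11.93 in day 5 pulsed cells and 11.81, 11.60 and 12.09 in day 5 controls, against 9.82, 9.66 and 9.58 in day 1 pulsed cells and 9.73, 9.54 and 9.64 in day 1 controls. No array of one day reached those of the other, and the differences were 2.12 ± 0.11, adjusted p = 3.55e-14 and 2.20 ± 0.11, adjusted p = 2.46e-14. Rhox9 read 11.78, 11.91 and 11.98 in day 5 pulsed cells and 11.84, 11.70 and 11.98 in day 5 controls, against 9.92, 9.93 and 9.89 in day 1 pulsed cells and 9.91, 9.76 and 10.11 in day 1 controls. Its days were equally separate, and it differed by 1.98 ± 0.095, adjusted p = 9.62e-15 in pulsed cells and by 1.91 ± 0.095, adjusted p = 2.08e-14 in controls. The Rhox genes form a family of close copies, so part of the signal of one may come from another, and their values are uncertain to that extent.

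Gata2, a GATA factor of trophoblast and blood lineages, was higher on day 5 in both sets. It read 8.83, 8.70 and 8.78 in day 5 pulsed cells and 8.66, 8.70 and 8.71 in day 5 controls, against 7.62, 7.86 and 7.61 in day 1 pulsed cells and 7.58, 7.75 and 7.77 in day 1 controls. The differences were 1.07 ± 0.091, adjusted p = 5.13e-10 and 0.99 ± 0.091, adjusted p = 2.59e-09, and the days did not overlap. Esx1, which in mouse is needed for normal placental growth, differed by 0.87 ± 0.13, adjusted p = 5.53e-06 in pulsed cells and 0.93 ± 0.13, adjusted p = 2.01e-06 in controls. The 4 genes belong to a list of trophoblast genes, of which 21 further genes were measured. Of those 21, 15 were higher and 1 lower on day 5 in pulsed cells, and 17 were higher and 0 lower in controls. The largest called in controls were Plac1, a placenta-specific secreted protein (2.83 ± 0.16), the GATA factor Gata3 (1.56 ± 0.12) and the imprinted gene Peg10 (1.20 ± 0.083). The mean of 9 trophoblast markers per array was 8.61 to 8.68 in day 5 pulsed cells and 8.54 to 8.69 in day 5 controls, against 7.36 to 7.55 in day 1 pulsed cells and 7.50 to 7.53 in day 1 controls. A few markers carried that mean: Krt7 averaged 11.42 in day 5 and 8.02 in day 1 pulsed cells, and Plac1 9.88 and 6.64, while Eomes averaged 7.04 and 6.92. The median difference over the 9, which include Gata2 itself, was 0.65 in pulsed cells and 0.46 in controls.

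The promoters of Mbnl3, which had the largest gain, and of the placental and matrix genes Esx1, Gata2 and Sparc are shown as examples of members in these roles. Of the 82 members, 64 matched the RefSeq table of promoters (build GRCm38.p6, 250 bases before to 50 after a start site), with 82 start sites in all. Rhox6, Rhox9, Ndrg1, Cdkn1c and Usp18, which had larger gains than Esx1, Gata2 and Sparc, are named only. The lines give Mbnl3 (chrX:51205941-51206240, minus strand), Esx1 (chrX:137120277-137120576, minus strand), the downstream listed start of Gata2 (chr6:88198414-88198713, plus strand) and Sparc (chr11:55420031-55420330, minus strand), each read 5′ to 3′ on the strand of its gene. Capitals mark matches, on either strand, to any of 7 short motifs.
Mbnl3: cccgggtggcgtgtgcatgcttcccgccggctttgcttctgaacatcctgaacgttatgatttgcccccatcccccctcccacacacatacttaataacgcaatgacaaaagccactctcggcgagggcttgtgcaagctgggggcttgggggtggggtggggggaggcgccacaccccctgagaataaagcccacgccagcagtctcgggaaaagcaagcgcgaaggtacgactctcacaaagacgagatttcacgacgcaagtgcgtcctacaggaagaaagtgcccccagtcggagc
Esx1: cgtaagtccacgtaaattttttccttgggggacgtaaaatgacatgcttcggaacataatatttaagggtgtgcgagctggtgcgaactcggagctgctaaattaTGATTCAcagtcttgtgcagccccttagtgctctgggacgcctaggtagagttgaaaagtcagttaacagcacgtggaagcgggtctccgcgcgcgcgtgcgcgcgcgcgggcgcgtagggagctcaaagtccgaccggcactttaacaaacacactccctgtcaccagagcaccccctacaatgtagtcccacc
Gata2: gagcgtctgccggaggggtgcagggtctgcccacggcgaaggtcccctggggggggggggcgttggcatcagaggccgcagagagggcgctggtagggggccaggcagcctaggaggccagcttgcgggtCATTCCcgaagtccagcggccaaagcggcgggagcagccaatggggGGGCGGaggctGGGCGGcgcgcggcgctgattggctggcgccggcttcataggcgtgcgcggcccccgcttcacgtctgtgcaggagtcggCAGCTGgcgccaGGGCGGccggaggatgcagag
Sparc: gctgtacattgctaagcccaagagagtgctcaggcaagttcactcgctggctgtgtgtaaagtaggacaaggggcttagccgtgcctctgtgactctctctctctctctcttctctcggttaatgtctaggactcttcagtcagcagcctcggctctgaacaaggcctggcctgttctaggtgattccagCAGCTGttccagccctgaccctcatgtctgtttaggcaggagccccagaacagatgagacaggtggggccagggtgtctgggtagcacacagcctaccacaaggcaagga
In Esx1 the capitals are TGATTCA, starting at position −145 from the start site. They match TGANTCA, the pattern searched for Fos and Jun dimers, in which any middle letter (N) counted. In Gata2 they are GGAATG of TEAD factors, read on the opposite strand at −120, GGGCGG of Sp and Kruppel-like factors at −74, −63 and 30, and the E-box CAGCTG at 18. In Sparc they are the E-box at −60. Mbnl3 held none of the 7, which says only that these letters are not in that window.

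Over all 82 start sites of members, GGGCGG was found in 69.5%, against 55.6% of the 16287 start sites of genes at the signal minimum and 35.6% of all 32817 in the table. TGANTCA, with any middle letter, was found in 12.2% of member sites, 5.75% of sites at the signal minimum and 7.81% of all. Jun itself is a member, at 0.70 ± 0.12, adjusted p = 4.13e-05 in pulsed cells and 0.55 ± 0.12, adjusted p = 0.00072 in controls. The GATA letters AGATAA were found in 6.1% of member sites, 7.42% of sites at the signal minimum and 11.2% of all, the TEAD letters in 15.9%, 12.8% and 14.7%, and the E-box in 12.2%, 16.4% and 16.3%. The TATA box TATAAA was in 8.54%, 8.52% and 13.6%, and the CREB letters TGACGTCA in 0 of 82 member sites, 2.67% and 1.79%. These shares are descriptions and carry no test; AP-1 and E-box letters were counted independently of any overlap with other motifs, and a match is not evidence of binding.

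Of the 6 growth regulators, 6 were called higher on day 5 in pulsed cells, where 96.3% of all members were, and 4 in controls, where 95.1% were. Cdkn1c, the imprinted cyclin-dependent kinase inhibitor p57, read 11.64, 11.71 and 11.78 in day 5 pulsed cells and 11.22, 11.36 and 11.45 in day 5 controls, against 9.55, 9.49 and 9.68 in day 1 pulsed cells and 9.66, 9.58 and 9.67 in day 1 controls. The gap between days was 2.13 ± 0.11, adjusted p = 1.64e-14 in pulsed cells and 1.70 ± 0.11, adjusted p = 1.86e-12 in controls. Its day 3 controls, at 9.72, 9.91 and 9.54, overlapped those of day 1 (0.08 ± 0.11, adjusted p = 0.727) and lay below all of day 5 (1.62 ± 0.11, adjusted p = 3.61e-11). Dlk1, an imprinted Notch-related ligand, differed by 0.74 ± 0.088, adjusted p = 1.72e-07 and 0.69 ± 0.088, adjusted p = 5.58e-07. Of 21 further imprinted genes measured, 12 were higher and 1 lower on day 5 in pulsed cells and 13 higher and 2 lower in controls, with the growth factor Igf2 at 3.39 ± 0.11 and 2.85 ± 0.11. Among 11 further genes of cell cycle exit, 6 were higher in pulsed cells and 9 in controls, and 0 were lower in either.

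Ndrg1, a gene known for induction by hypoxia and differentiation, was higher on both later days. It read 10.91, 10.97 and 10.84 in day 5 pulsed cells and 10.48, 10.67 and 10.73 in day 5 controls, against 8.98, 8.79 and 8.97 in day 1 pulsed cells and 8.66, 8.66 and 8.61 in day 1 controls. The days did not overlap, and the differences were 1.99 ± 0.069, adjusted p = 8.79e-18 and 1.98 ± 0.069, adjusted p = 1.93e-17. On day 3 it read 9.48, 9.42 and 9.52 in pulsed cells and 9.51, 9.49 and 9.47 in controls, against 8.57, 8.57 and 8.52 on day 3 of withdrawal without the added 12 h, a comparison that shares arrays with the selection and is not tested. Of 24 further hypoxia and glycolysis genes, 10 were higher and 1 lower on day 5 in pulsed cells, and 14 higher and 4 lower in controls. Over the last interval that list went the other way, with 3 higher and 9 lower on day 5 than on day 3 in each set, and 18 were already higher on day 3 than on day 1 in controls. Igfbp6, a binding protein with preference for IGF2, read 8.22, 8.35 and 8.43 in day 5 pulsed cells and 8.11, 7.91 and 8.19 in day 5 controls, against 6.68, 6.63 and 6.52 in day 1 pulsed cells and 6.64, 6.505 and 6.59 in day 1 controls. The days did not overlap, and it differed by 1.72 ± 0.08, adjusted p = 5.53e-15 in pulsed cells and 1.49 ± 0.08, adjusted p = 8.68e-14 in controls. The p53 target Phlda3 was called on day 5 in pulsed cells (0.89 ± 0.12, adjusted p = 2.68e-06) but not in controls (0.29 ± 0.12, adjusted p = 0.0744); the difference between those 2 differences was 0.60 ± 0.18, adjusted p = 0.169. The insulin receptor substrate Irs1 differed by 0.44 ± 0.13, adjusted p = 0.00879 in pulsed cells and 0.19 ± 0.13, adjusted p = 0.265 in controls. Its day 3 controls averaged 7.26 and its day 5 controls 7.18, so in controls it did not rise over the last interval. A second cluster of Irs1, of lower signal, had a selecting difference of −0.08, so the 2 clusters of this gene disagree.

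**Figure D2:**
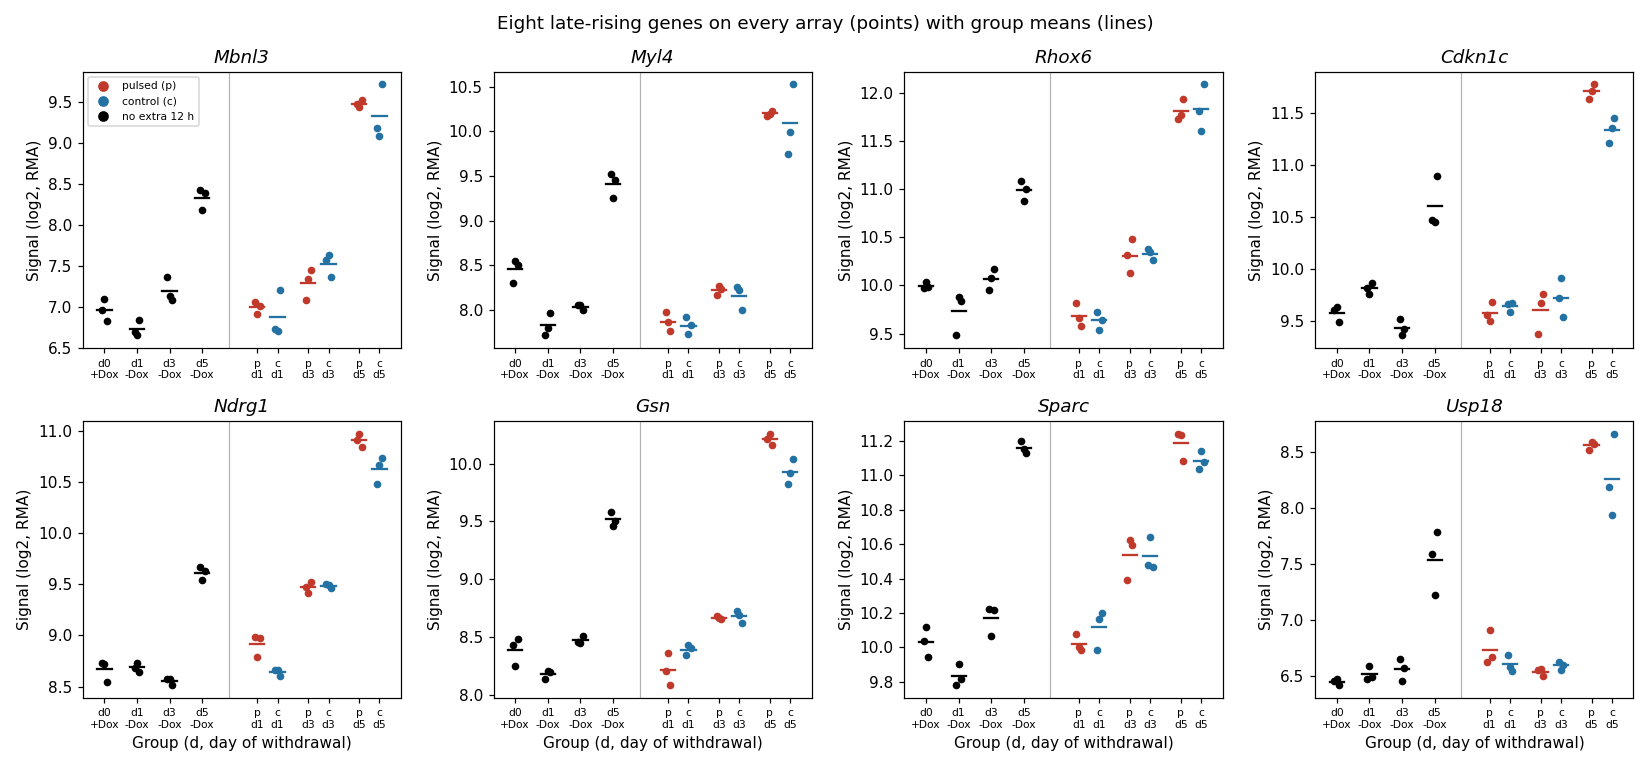
Signal (log2) of 8 late-rising genes on each array, by group; points are arrays, short lines are means of 3 arrays, and on each day the pulsed cells stand left of their controls. In all 8 panels the day 5 arrays of both kinds lie above those of day 1, and Ndrg1 has the largest difference of the 8 between day 3 and day 1 controls (0.85).

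Matrix and adhesion genes formed the largest role group, and all 12 were higher on day 5 than on day 1 in pulsed cells and in controls. Of all members 96.3% were higher in pulsed cells and 95.1% in controls, and of all clusters 14.5% and 16.4%. A full count in this or a later role is thus near the rate of all members. The roles were assigned after the values were known, so these counts only sort the members. Sparc, a matricellular protein that is abundant in parietal endoderm, read 11.24, 11.24 and 11.08 in day 5 pulsed cells and 11.04, 11.14 and 11.08 in day 5 controls, against 10.08, 10.00 and 9.98 in day 1 pulsed cells and 9.98, 10.17 and 10.20 in day 1 controls. Its days did not overlap (1.17 ± 0.075, adjusted p = 2.99e-12 in pulsed cells and 0.97 ± 0.075, adjusted p = 1.32e-10 in controls). Col4a1, a chain of collagen IV, differed by 0.96 ± 0.075, adjusted p = 1.1e-10 and 0.90 ± 0.075, adjusted p = 4.79e-10. Serpinh1, the collagen chaperone of the endoplasmic reticulum, differed by 1.07 ± 0.11, adjusted p = 1.23e-08 and 1.05 ± 0.11, adjusted p = 2.08e-08. The membrane-anchored metalloproteinase Mmp14 differed by 1.28 ± 0.10, adjusted p = 1.9e-10 and 1.07 ± 0.10, adjusted p = 5.98e-09.

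These 4 genes are on a list of basement membrane and matrix genes with 25 further measured members. In pulsed cells 14 of the 25 were higher on day 5 and 0 were lower, and in controls 12 were higher and 2, Lox and Nid2, were lower. Col4a2, the partner chain of Col4a1, differed by 0.97 ± 0.092 in pulsed cells and 1.08 ± 0.092 in controls. The other members of the role group are the laminin receptor subunit Itga3 (0.95 ± 0.07 in pulsed cells and 1.05 ± 0.07 in controls), the integrin Itgb3 (0.88 ± 0.086 and 1.04 ± 0.086), the glypican Gpc6 (0.55 ± 0.093 and 0.53 ± 0.093), the surface glycoproteins Cd24a and Bsg, the connexin Gjb2, Fndc3b, and Scel, a precursor of the cornified envelope. Their control differences lay between 0.53 and 1.05. Gjb2 read 7.69, 7.41 and 7.75 in day 5 pulsed cells and 7.32, 7.40 and 8.11 in day 5 controls, against 6.47, 6.73 and 6.75 in day 1 pulsed cells and 6.58, 6.503 and 6.58 in day 1 controls. Its gap was 0.97 ± 0.16 in pulsed cells and 1.05 ± 0.16 in controls. Scel read 6.19, 6.24 and 6.19 in day 5 pulsed cells and 6.29, 6.76 and 6.49 in day 5 controls, against 5.65, 6.14 and 5.87 in day 1 pulsed cells and 6.02, 5.83 and 5.76 in day 1 controls. For both genes the days did not overlap, and Scel had the smaller gap, at 0.32 ± 0.10 and 0.64 ± 0.10.

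Feeder fibroblasts also make matrix, and their markers are therefore given beside these genes. Of 16 fibroblast markers, 6 were higher and 1 lower on day 5 in pulsed cells, and 5 higher and 3 lower in controls. Their mean per array was 7.55 to 7.62 in day 5 pulsed cells and 7.41 to 7.50 in day 5 controls, against 7.39 to 7.50 in day 1 pulsed cells and 7.32 to 7.45 in day 1 controls. Vim was lower on day 5 in both sets (−0.28 ± 0.084 in pulsed cells and −0.34 ± 0.084 in controls), and Thy1 was lower in controls (−0.36 ± 0.13). Col1a2 (0.81 ± 0.063 and 0.96 ± 0.063), Pdgfra and Pdgfrb were higher in both. The part of these markers in the matrix result was not tested. Of 27 further genes of extraembryonic endoderm, 15 were higher and 0 lower on day 5 in pulsed cells, and 11 higher and 1 lower in controls. On the narrower list of 10 extraembryonic endoderm markers, 4 were higher in pulsed cells and 3 in controls, with 0 lower and medians of 0.08 and 0.10.

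All 7 cytoskeletal and muscle-type members were higher on day 5 in both sets, as were 96.3% and 95.1% of all members. The 22 genes of a list of actin and SRF targets, none of them members, were mixed, with 12 higher and 4 lower in each set, and with 8 higher and 6 lower on day 5 than on day 3 in controls. Of 5 smooth muscle markers, 1 was higher and 1 lower on day 5 than on day 1 in each set. Against day 3, 1 was higher and 3 lower in controls, and 0 higher and 3 lower in pulsed cells. Gsn, an actin-severing protein, read 10.21, 10.26 and 10.16 in day 5 pulsed cells and 9.83, 9.92 and 10.04 in day 5 controls, against 8.20, 8.36 and 8.09 in day 1 pulsed cells and 8.34, 8.43 and 8.40 in day 1 controls. Neither set had any overlap between days (1.99 ± 0.07, adjusted p = 1.13e-17 in pulsed cells and 1.54 ± 0.07, adjusted p = 3.65e-15 in controls). Myl4, the atrial and embryonic myosin light chain, read 10.17, 10.19 and 10.23 in day 5 pulsed cells and 9.75, 9.99 and 10.52 in day 5 controls, against 7.97, 7.87 and 7.77 in day 1 pulsed cells and 7.92, 7.73 and 7.83 in day 1 controls. The days did not overlap, with differences of 2.33 ± 0.12, adjusted p = 4.19e-14 and 2.26 ± 0.12, adjusted p = 9.55e-14, and the pulsed arrays of day 5 lay within the range of their controls. The actin crosslinker Flnc read 8.93, 8.85 and 8.70 in day 5 pulsed cells and 8.42, 8.75 and 8.71 in day 5 controls, against 7.59, 7.63 and 7.67 in day 1 pulsed cells and 7.68, 7.81 and 7.72 in day 1 controls. Its days did not overlap, and it differed by 1.20 ± 0.10 in pulsed cells and 0.89 ± 0.10 in controls, the actin bundler Lcp1 by 1.11 ± 0.11 and 0.96 ± 0.11, and the membrane repair protein Dysf by 1.16 ± 0.084 and 1.01 ± 0.084. Myl4 and Itgb3 are neighbours with no protein-coding gene between them in the RefSeq annotation, as are Ifnar2 and Il10rb.

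All 10 members of the secretory pathway and all 6 of the lysosome and endosome were higher on day 5 in both sets. So were 96.3% of all members in pulsed cells and 95.1% in controls. Vamp8, a SNARE protein of endosomal fusion, led the secretory group at 1.88 ± 0.10, adjusted p = 6.09e-14 in pulsed cells and 1.28 ± 0.10, adjusted p = 1.45e-10 in controls. The cargo receptor Surf4, the thiol oxidase Qsox1, the glycosyltransferase Galnt3 and the calcium-binding Golgi protein Nucb1 had smaller control differences of 0.53 ± 0.085, 0.60 ± 0.077, 0.73 ± 0.099 and 0.79 ± 0.09. Lgmn, the asparaginyl endopeptidase of lysosomes, read 10.87, 10.79 and 10.62 in day 5 pulsed cells and 10.84, 11.06 and 10.92 in day 5 controls, against 9.99, 9.91 and 10.02 in day 1 pulsed cells and 9.97, 10.00 and 10.22 in day 1 controls. Its days were separate, by 0.79 ± 0.084, adjusted p = 3.24e-08 and 0.88 ± 0.084, adjusted p = 5.11e-09. The sulphatase Galns and the acid sphingomyelinase Smpd1 differed in controls by 0.90 ± 0.088 and 0.76 ± 0.10. Of 29 further lysosome and autophagy genes, 21 were higher and 1 lower in pulsed cells, and 22 higher and 1 lower in controls, with the protease Ctsb at 1.24 ± 0.079 and 1.04 ± 0.079.

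Of the 11 ligands, receptors and signalling genes, 11 were higher on day 5 in pulsed cells and 10 in controls. The shares of all members were 96.3% and 95.1%. Usp18, which removes the ubiquitin-like Isg15 and restrains interferon signalling, read 8.52, 8.59 and 8.57 in day 5 pulsed cells and 8.19, 7.94 and 8.67 in day 5 controls, against 6.62, 6.91 and 6.67 in day 1 pulsed cells and 6.69, 6.58 and 6.55 in day 1 controls. The gap was 1.83 ± 0.12, adjusted p = 7.74e-12 in pulsed cells and 1.66 ± 0.12, adjusted p = 6.29e-11 in controls, with day 5 controls spread over a wider range than the pulsed arrays. The interferon receptor subunit Ifnar2 differed by 0.62 ± 0.11 and 0.96 ± 0.11, the cytokine receptor subunit Il10rb by 0.96 ± 0.099 and 1.10 ± 0.099, and the TNF receptor Tnfrsf1a by 0.66 ± 0.12 and 0.76 ± 0.12. Of 20 other interferon and antigen presentation genes, 11 were higher and 3 lower on day 5 in pulsed cells, and 9 higher and 3 lower in controls; the share lower is near the 13.7% and 15.8% of all clusters. The ligands Bmp7, Kitl and Efna5 differed by 0.67 ± 0.093, 0.89 ± 0.11 and 1.05 ± 0.091 in pulsed cells and by 0.61 ± 0.093, 0.66 ± 0.11 and 0.90 ± 0.091 in controls. Rasl11b, a small Ras-like GTPase, differed by 0.29 ± 0.10, adjusted p = 0.0318 in pulsed cells and 0.24 ± 0.10, adjusted p = 0.0747 in controls.

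Among the remaining members, the 5 lipid enzymes and flippases were higher on day 5 in both sets, as were 96.3% and 95.1% of all members. Atp11a, a flippase, led them at 1.62 ± 0.084, adjusted p = 3.55e-14 in pulsed cells. In controls it differed by 1.16 ± 0.084, adjusted p = 3.58e-11. The fatty acid elongase Elovl1 differed by 1.18 ± 0.081 and 0.92 ± 0.081. Of the 7 genes of transport, redox and sulphation, 5 were called in pulsed cells and 7 in controls. The calcium channel regulator family member Tmem37 differed by 1.12 ± 0.10 and 1.29 ± 0.10, the chloride channel protein Clic1 by 1.32 ± 0.09 and 1.16 ± 0.09, and the extracellular glutathione peroxidase Gpx3 by 0.87 ± 0.13 and 1.16 ± 0.13. The histone gene H3c15 departed from the others. It read 6.37, 6.37 and 6.26 in day 5 pulsed cells and 6.74, 7.41 and 7.43 in day 5 controls, against 6.79, 6.29 and 6.97 in day 1 pulsed cells and 6.62, 6.65 and 6.88 in day 1 controls. Its day 3 controls read 7.30, 7.84 and 7.08, with a mean of 7.41 against 7.19 in day 5 controls. In controls the mean of H3c15 was thus highest on day 3. Its day 3 and day 5 control arrays overlapped, and the difference was not called. Pulsed arrays of day 5 overlapped those of day 1 (−0.35 ± 0.19, adjusted p = 0.205), and H3 genes are near-identical copies, so its signal is uncertain.

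Hspb11, an intraflagellar transport protein, had a day 5 minus day 1 difference of 1.41 ± 0.16 in controls, and Serpinb6b, of a family of close copies, 0.81 ± 0.082. Taf7l, a germ-cell relative of a TFIID subunit, read 6.70, 6.32 and 6.503 in day 5 pulsed cells and 6.43, 7.10 and 6.90 in day 5 controls, against 6.12, 5.96 and 6.002 in day 1 pulsed cells and 5.999, 6.16 and 6.29 in day 1 controls. Its days did not overlap either (0.48 ± 0.15 in pulsed cells and 0.66 ± 0.15 in controls). Among other transcription and chromatin genes, the control difference was 1.01 ± 0.086 for the methyl-CpG binding protein Mbd2, 1.07 ± 0.12 for the nucleosome-binding Hmgn3 and 0.77 ± 0.11 for the LIM-domain cofactor Fhl2. The RNA-binding proteins Cpeb4 and Stau1 had 0.61 ± 0.11 and 0.55 ± 0.079. In signalling, Dkkl1, Rhoc and Ip6k2 had 0.93 ± 0.11, 0.99 ± 0.089 and 0.55 ± 0.091. Reep5, which shapes the endoplasmic reticulum, had 1.25 ± 0.087, and Gpx8 and Smim14 had 0.70 ± 0.099 and 0.23 ± 0.085. The lysosomal proteins Laptm4a, Mfsd12 and Tmbim1 had 0.31 ± 0.051, 0.90 ± 0.075 and 0.84 ± 0.086, and the phospholipid enzymes Lpgat1 and Plpp5 had 0.97 ± 0.12 and 0.59 ± 0.067. The focal adhesion protein Lims2 had 0.68 ± 0.082, the zinc transporter Slc30a4 0.67 ± 0.12 and the calcium-binding Sri 0.93 ± 0.068. Fmr1nb and Tcta had 0.46 ± 0.094 and 0.84 ± 0.085.

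The 12 h added at the end of withdrawal can be described by setting the controls beside the arrays of the same day without it, although those arrays entered the selection and no test is given. On day 5 the controls were above the arrays without the added 12 h for 56 of the 82 genes, with a median of 0.11. For 8 genes the difference was at least 0.5, led by Ndrg1 (1.01), Mbnl3 (0.99) and Rhox6 (0.85), and the lowest was that of Scel (−0.57). On day 3 the median was 0.13 and on day 1 it was 0.15. For 3 genes the day 3 difference was at least 0.5, Ndrg1 (0.93), H3c15 (0.72) and Vamp8 (0.56). Their day 3 controls averaged 9.49, 7.41 and 9.21, against 8.67, 6.52 and 8.43 on day 0. With the added 12 h these 3 genes thus stood above day 0 before day 5, but they were not the only ones. Day 3 controls also averaged 9.63 against 8.99 on day 0 for Elovl1 and 7.02 against 6.41 for Igfbp6. For Flnc the means were 8.13 against 7.52, and for Bsg 10.91 against 10.30. The members with day 3 control means below day 0 were Myl4, Kitl and Dlk1. How many of these means passed the 0.3 limit of the rule was not counted.

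The pulsed arrays address whether 12 h of doxycycline changed these genes against the control of the same day. Each such comparison shares its control arrays with the late rise in controls. On most members it made a small difference or none that was called. On day 1, 1 member was higher in pulsed cells than in controls, with 0.547% of clusters called, and 2 were lower, with 3.2% called. Ndrg1 read 8.98, 8.79 and 8.97 with the pulse and 8.66, 8.66 and 8.61 in controls (0.27 ± 0.069, adjusted p = 0.0233). Phlda3 read 8.87, 8.86 and 9.09 with the pulse and 9.70, 9.75 and 9.15 in controls (−0.60 ± 0.12, adjusted p = 0.00675). Vamp8 read 8.19, 7.95 and 8.26 with the pulse and 8.56, 8.67 and 8.41 in controls (−0.41 ± 0.10, adjusted p = 0.0182). The arrays did not overlap for any of the 3, which were chosen by their calls. Of the 16593 genes at the signal minimum, 1058 had all pulsed arrays above all controls and 2560 had all below. Among the members these numbers were 5 and 15. Without replicate 2 of the day 1 controls none of the 3 was called. Without that replicate 0.175% of all clusters were called higher and 1.19% lower. A fit of the 6 arrays of day 1 alone also called none of them, with 0.047% of clusters higher and 0.269% lower. Calls thus became fewer over the whole array. Ndrg1 was also not called without replicate 3 of the controls or replicate 1 or 3 of the pulsed cells, nor was Vamp8 without replicate 2 of the pulsed cells.

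On day 3, 0 members were called higher, with 0.00428% of clusters called, and 0 lower, with 0.0342% called by limma. At an unadjusted p under 0.05, 0 were higher and 11 lower (13.4%), against 3.44% higher and 12.2% lower of the 16593 genes at the signal minimum. The median over the members was −0.05 on day 1 and on day 3, against 0.01 and −0.01 over all clusters.

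On day 5, when the signals were highest, 4 members were higher in pulsed cells, with 5.13% of clusters called, and 11 were lower, with 7.1% called. The 2 shares of members, 4.88% and 13.4%, are read against these backgrounds, and the median over the members was −0.06. The 4 higher genes were Cdkn1c, Gsn, Ndrg1 and Igfbp6, whose late differences in pulsed cells, which share the day 5 pulsed arrays, are given above. Cdkn1c read 11.64, 11.71 and 11.78 with the pulse and 11.22, 11.36 and 11.45 in controls (0.37 ± 0.11, adjusted p = 0.0274). Gsn read 10.21, 10.26 and 10.16 with the pulse and 9.83, 9.92 and 10.04 in controls (0.28 ± 0.07, adjusted p = 0.0135). Ndrg1 differed by 0.28 ± 0.069, adjusted p = 0.0124, and Igfbp6 by 0.26 ± 0.08, adjusted p = 0.0352. For all 4, chosen by their calls, the pulsed arrays lay above the controls without overlap. Such separation was seen for 7 of the 82 members, called or not, and for 1177 of the 16593 genes at the signal minimum.

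The 11 lower genes came from several roles. H3c15 was lowest, at 6.37, 6.37 and 6.26 with the pulse and 6.74, 7.41 and 7.43 in controls (−0.86 ± 0.19, adjusted p = 0.00759). Hspb2, a small heat shock protein of muscle, read 8.46, 8.22 and 8.44 with the pulse and 8.73, 8.89 and 9.11 in controls (−0.54 ± 0.1, adjusted p = 0.00181). Agpat4, an acyltransferase of phospholipid synthesis, read 9.63, 9.37 and 9.44 with the pulse and 9.80, 10.00 and 10.04 in controls (−0.47 ± 0.08, adjusted p = 0.0008). These 3 pairs of groups did not overlap. All pulsed arrays lay below all controls for 12 of the 82 members and for 2161 of the 16593 genes at the signal minimum. Hspb11 differed by −0.54 ± 0.16, adjusted p = 0.0275, the endoplasmic reticulum isomerase Fkbp7 by −0.43 ± 0.13, adjusted p = 0.0282, and Serpinb6b by −0.35 ± 0.082, adjusted p = 0.00907. The histone deubiquitinase Usp3 differed by −0.34 ± 0.091, adjusted p = 0.0182, Papss2, which makes the sulphate donor, by −0.33 ± 0.094, adjusted p = 0.0255, and Scel by −0.31 ± 0.10, adjusted p = 0.0491. The amino acid transporter Slc7a8 differed by −0.30 ± 0.088, adjusted p = 0.0274, and the Golgi protein Yipf2, whose arrays overlapped, by −0.24 ± 0.078, adjusted p = 0.0411.

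The day 5 calls changed with the arrays used, and 2 of the 3 day 5 controls are among the 4 widest. In a fit of the 6 arrays of day 5 alone, 0% of all clusters were called in either direction, so that it says nothing about the members. Without the 4 widest arrays 1 day 5 control is left, so no calls are read from that fit. Ndrg1 then differed by 0.43. Leaving out replicate 1 of the day 5 controls gave 25 lower members, with 17.3% of clusters lower. Leaving out replicate 2 gave 2, with 1.51% of clusters lower, and replicate 3 gave 3, with 2.11%. The counts of members thus moved with those of the whole array. Without replicate 2 or 3 of the day 5 pulsed cells 5 and 4 were lower, with 1.77% and 2.01% of clusters, and the higher members numbered 1 without control replicate 2, 0 without pulsed replicate 2 and 2 without pulsed replicate 3, with 0.714%, 0.659% and 0.966% of clusters higher. Of the 1002 other genes at least 0.7 higher on day 5 of withdrawal, 28.2% were lower with the day 5 pulse and 0.499% higher, with a median of −0.19. On day 1 these shares were 19.7% lower and 0% higher, with a median of −0.20. The difference between those genes and the late rises was not tested.

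**Figure D3:**
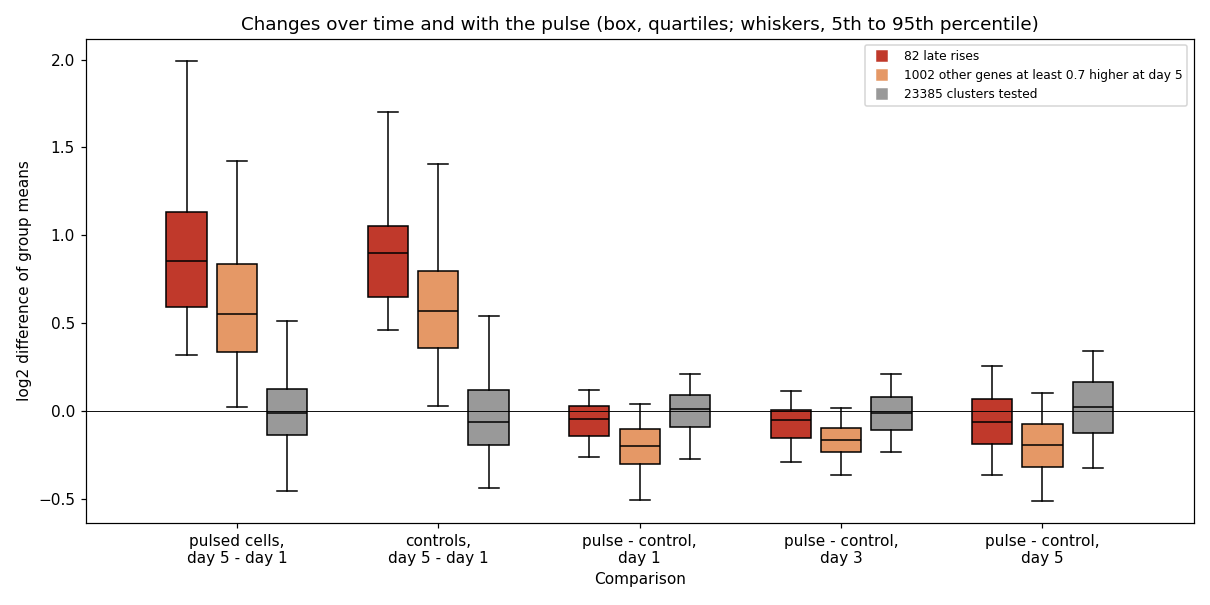
Log2 differences over time (left) and with the pulse (right) for the 82 late-rising genes, the 1002 other genes at least 0.7 higher on day 5, and all 23385 clusters; boxes show quartiles and whiskers the 5th to 95th percentiles. The late rises have medians of 0.85 and 0.90 over time and of −0.05, −0.05 and −0.06 with the pulse.

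**Figure D4:**
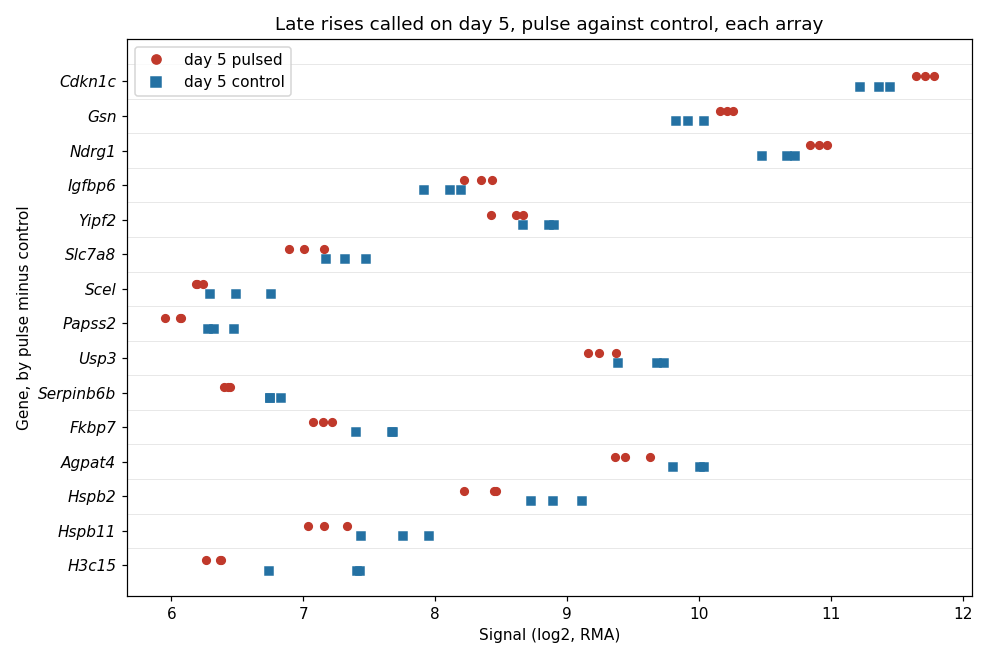
Signal (log2) on each day 5 array for the 15 late-rising genes called with the pulse; circles are pulsed cells and squares, drawn below them, controls. The 4 genes at the top are higher with the pulse, the 11 below them lower, and Yipf2 alone has overlapping arrays.

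The pulse effect itself was compared between days. The day 5 effect exceeded the day 3 effect for 2 members, with 0.355% of clusters called, and was below it for 1, with 0.582% called. Elovl1 read 10.29, 10.33 and 10.28 with the pulse on day 5, against 9.97, 10.07 and 10.20 in controls, and 9.31, 9.33 and 9.40 with the pulse on day 3, against 9.68, 9.72 and 9.50 in controls. Its effects of 0.22 ± 0.081 on day 5 and −0.29 ± 0.081 on day 3 were not called on their own, and they differed by 0.51 ± 0.12, adjusted p = 0.0349. Mmp14 followed the same order, with effects of 0.27 ± 0.10 on day 5 and −0.34 ± 0.10 on day 3, which differed by 0.61 ± 0.15, adjusted p = 0.0437. Hspb2 went the other way, with −0.54 ± 0.1 on day 5 and 0.14 ± 0.1 on day 3, a difference of −0.67 ± 0.14, adjusted p = 0.0278. Without the 4 widest arrays 1 day 5 control is left, so the 3 differences were not judged there. In a fit of the groups compared alone, 0% of clusters were called in either direction. Between day 5 and day 1, 0 members had a higher effect, with 0.0599% of clusters called by limma, and 0 a lower one, with 0.0513% called. At an unadjusted p under 0.05, 9 were higher and 13 lower (11% and 15.9%), against 6.23% and 6.6% of the 16593 genes at the signal minimum. This test is also that of the late gain in pulsed cells against the late gain in controls, so no member was shown to gain more or less by day 5 with the pulse than without it.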

How the data were processed

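Expression was measured on 30 mouse arrays, in 10 groups of 3. The deposited log2 values of 28815 transcript clusters come from the authors' RMA processing. The submitters' processing notes name Affymetrix Expression Console as the software; versions and the genome build are not given in the sources used here. RMA corrects background, quantile-normalizes the probe values and then summarises them, which compresses low signals. The cluster values are not fixed to a single distribution, and their interquartile range differed between arrays as given above. Symbols came from GEO's platform annotation: 21780 clusters had 1 symbol, 1605 several and 5430 none. The 23385 clusters with a symbol were fitted in limma 3.58.1 (R 4.3.3) as 10 group means, with Benjamini-Hochberg adjustment over all of them in each contrast and calls at an adjusted p under 0.05. The script was tested on simulated data. Errors beside log2 differences are standard errors of the fit with 3 arrays a group. The number of arrays limits the precision.

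The members, gene lists and roles were chosen with earlier results of these data known. Values on every array were to be given for the 12 members with the largest selecting difference, called members of largest change whose arrays did not overlap, members on a list, and the genes nearest each threshold. This was kept for the first of these; many of the others are given as differences alone. Of list genes outside the 82, up to 3 called ones per list and contrast are named, and fibroblast markers, Igf2, Ctsb and Col4a2 fall within that rule. Alternatives were eBayes settings, array weights, the groups compared alone, 2 other normalizations, a filter on low signal, clusters without a symbol, the interquartile range as a covariate, a replicate block, each array left out and, chosen after seeing the data, the 4 widest arrays left out.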

Additional observations from a re-analysis of the deposited data

Results flagged for a closer look

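For 3 genes the effect of the day 5 pulse differed from that of the day 3 pulse in the test of the difference itself (limma, adjusted over all clusters). Elovl1 had a difference of 0.51 (adjusted p = 0.0349), called in 11 of 22 alternatives. Mmp14 had 0.61 (adjusted p = 0.0437), called in 9 of 22. Hspb2 had −0.67 (adjusted p = 0.0278), called in 15 of 22. Without the 4 widest arrays, which leaves a single day 5 control, the Elovl1 difference was 0.58.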

How the results depend on the processing

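The late rise held best: leaving out single arrays gave 75 to 79 members for day 5 over day 1 in pulsed cells, 77 to 81 in controls, 62 to 68 for day 5 over day 3 in pulsed cells and 71 to 80 in controls. In controls, day 5 over day 3 was 48 without the 4 widest arrays, an alternative chosen after seeing the data, and day 3 over day 1 gave 16 in a fit of the groups compared alone and 20 to 33 without single arrays. Leaving out the same arrays also moved the shares of all clusters. Day 5 over day 1 was called higher for 12.3% to 13.6% of clusters in pulsed cells and 12.9% to 19.3% in controls. Day 5 over day 3 was called for 6.93% to 7.73% and 5.62% to 13%. The pulse counts moved more, and the cause was not tested. Cluster shares moved too, so these counts do not describe the members alone. On day 5, without single arrays, 1.51% to 17.3% of clusters were lower and 0.659% to 19.5% higher. On day 1, lower members numbered 13 with array weights, 0 with only the groups compared, 4 without the widest arrays and 0 to 2 without single arrays; higher members numbered 0 with only the groups compared, 0 with median centring and 0 to 1 without single arrays. On day 3, array weights gave 9 lower, and leaving out single arrays gave 0 in either direction. On day 5, lower members numbered 27 with array weights and 0 with only the groups compared. With the lowest 40% of signal left out, where 65 members remained, 6 were lower. With the interquartile range as a covariate 2 were lower, and 2 to 25 were lower without single arrays. Higher members on day 5 numbered 0 with only the groups compared, 1 with median centring and 11 with quantile normalization. Without single arrays 0 to 5 were higher. For the day 5 minus day 3 pulse effect, lower members numbered 2 with trend and robust settings and 20 with array weights. They numbered 0 with only the groups compared, 0 with median centring and 3 with quantile normalization. With the low-signal filter and with the covariate they numbered 2 each. Without single arrays they numbered 0 to 4. There were 0 without day 3 control 1, day 3 pulsed 3, day 5 control 3 or day 5 pulsed 2. Without day 3 control 2 or day 5 pulsed 1 there were 2, and without day 5 control 1 there were 4. For the day 5 minus day 1 effect, array weights gave 14 lower and single arrays left out gave 0 to 3, with 2 without day 1 control 3 and 3 without day 5 control 1. Without single arrays, 1.03% to 2.99% of clusters were lower and 0.175% to 1.23% higher with the day 1 pulse. For the day 5 minus day 3 effect 0.0428% to 2.07% were lower. For the day 5 minus day 1 effect it was 0.00428% to 1.34%. Without the 4 widest arrays, 4.04% were lower on day 1. Where no cluster share is given, a change in members cannot be told apart from one of the whole array. Of 13934 values of single genes under the alternatives, 0 changed direction on a call, 372 lost a call and 245 gained one. The replicate numbers did not pair the arrays: same-numbered arrays had a median correlation of deviations of −0.0059, 36 of 135 pairs were over 0.1, and 8 arrays were closest to their own number. With a replicate block the late rise counts were 79 and 69 in pulsed cells and 78, 79 and 33 in controls; the pulse counts were 2 lower and 1 higher on day 1, 0 and 0 on day 3, 10 lower and 4 higher on day 5, 1 lower for day 5 minus day 3 and 0 for day 5 minus day 1.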

Other observations

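Keratins and other genes of simple epithelium, none of them among the 82, were also higher late. Of 26 measured, 24 were higher and 0 lower on day 5 than on day 1 in pulsed cells, and 23 higher and 0 lower in controls (limma). Of all clusters 14.5% and 16.4% were higher. Krt7 differed by 3.40 ± 0.063 and 2.76 ± 0.063, Krt18 by 3.00 ± 0.075 and 2.66 ± 0.075, and Krt19 by 2.97 ± 0.11 and 2.46 ± 0.11, in pulsed cells and controls in that order. Between day 1 and day 3 of the controls 18 of the 26 were already higher, against 5.6% of all clusters. With the day 5 pulse 1 was higher, Krt8, and 1 lower, Krt20, against 5.13% and 7.1% of all clusters.

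Of 15 targets of YAP and TEAD, 12 were higher and 1, Ajuba, lower on day 5 in pulsed cells, and 11 were higher and 1 lower in controls. The shares of all clusters called higher were 14.5% and 16.4%. Gadd45b differed by 1.23 ± 0.077 in pulsed cells and 1.44 ± 0.077 in controls, and with the day 5 pulse by −0.41, adjusted p = 0.0021. Of 13 neuroectoderm genes, 0 were higher in either set, and 7 were lower in pulsed cells and 8 in controls, where 13.7% and 15.8% of all clusters were lower.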
